A study of Homo sapiens with 16 samples.

Results

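The genes described here are 10 genes of the elastic microfibril and of the enzymes that cross-link it, measured by RNA-seq in H1299 cells after knockdown (KD) of YEATS2. They are the 2 microfibril-associated glycoproteins MFAP5 and MFAP2, the fibrillins FBN1 and FBN2, the latent TGF-beta binding proteins LTBP1, LTBP2 and LTBP3, and the lysyl oxidases LOX, LOXL1 and LOXL2. The 10 were chosen by symbol from the 12676 genes of the count table, because the rise of MFAP5 in this same contrast is among the largest. MFAP5 is therefore described without a test, and the other 9 are its relatives by family, chosen with results of these data known.

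H1299 is an established human non-small cell lung cancer line, and YEATS2 is a subunit of the ATAC histone acetyltransferase complex. The control cells (shCtrl, 2 libraries) had received a lentivirus with a non-targeting shRNA (shNT), and the YEATS2 KD cells (shYEATS2, 2 libraries) one with an shRNA against YEATS2 that the labels do not name. Both groups had been infected in 8 µg/ml polybrene and selected with 2 µg/ml puromycin, added after 48 h, for 4 to 7 days per the labels, so each library came from a selected population of 1 cell line. The study's methods give a shorter selection. The study describes the RNA-seq replicates as independent biological replicates, and the labels give only replicate numbers, so the tests measure the spread between the 2 libraries of a group.

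Microfibrils are filaments of fibrillin in the extracellular matrix, onto which the microfibril-associated glycoproteins bind and along which elastin is laid down in elastic tissues such as the lung. The latent TGF-beta binding proteins sit on the same filaments, and several of them hold TGF-beta in its inactive form. Lysyl oxidases are secreted copper enzymes that oxidise lysines of elastin and collagen so that the chains become covalently cross-linked.

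The 4 libraries held 34718921 to 39417787 reads assigned to genes. Counts were scaled by the trimmed mean of M-values (TMM) to the mean library size, and these scaled counts are the levels given unless a level per length is named. The targeted gene YEATS2 had 4482 and 4104 scaled counts in shCtrl and 665 and 673 in shYEATS2, a log2 fold change of -2.68 (standard error 0.10, FDR 0.000583). FDR is the Benjamini-Hochberg adjusted p of edgeR's quasi-likelihood test over all genes, and a gene is called when it is under 0.01. Of all genes, 12.9% were called higher and 12.5% lower in YEATS2 KD cells, with a median log2 fold change of 0.00. Without TMM, on total counts, 2363 genes were called higher and 1166 lower in place of 1630 and 1581. Of the marker genes of the line, KRT8, KRT18, VIM, CDH2 and ZEB1 were listed, while EPCAM, CDH1 and KRT19 were not. Since every listed gene had over 100 reads in some library, an unlisted gene was not shown to be absent.

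MFAP5 is left out of the counts of genes in this paragraph, since its rise chose the set. Each of the other 9 genes had a mean level in YEATS2 KD cells above that of the control cells. In all of the 9 except LOX, both shYEATS2 libraries were above both shCtrl libraries. Of the 9, 7 were called higher and 0 lower, beside 12.9% and 12.5% of all genes. Those called were MFAP2, FBN1, LTBP1, LTBP2, LTBP3, LOXL1 and LOXL2, and those not called were FBN2 and LOX. The median log2 fold change of the 9 was 0.87. The level per length of a gene is given as scaled RPKM, which corrects the reads for exon length and library size. Summed over the 10 genes it was 61.1 and 63.0 in shCtrl and 115 in both shYEATS2 libraries. Over all genes, 39.7% had both shYEATS2 libraries above both controls. These are bulk libraries, in which more cells of a kind and more RNA per cell cannot be told apart.

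**Figure D1:**
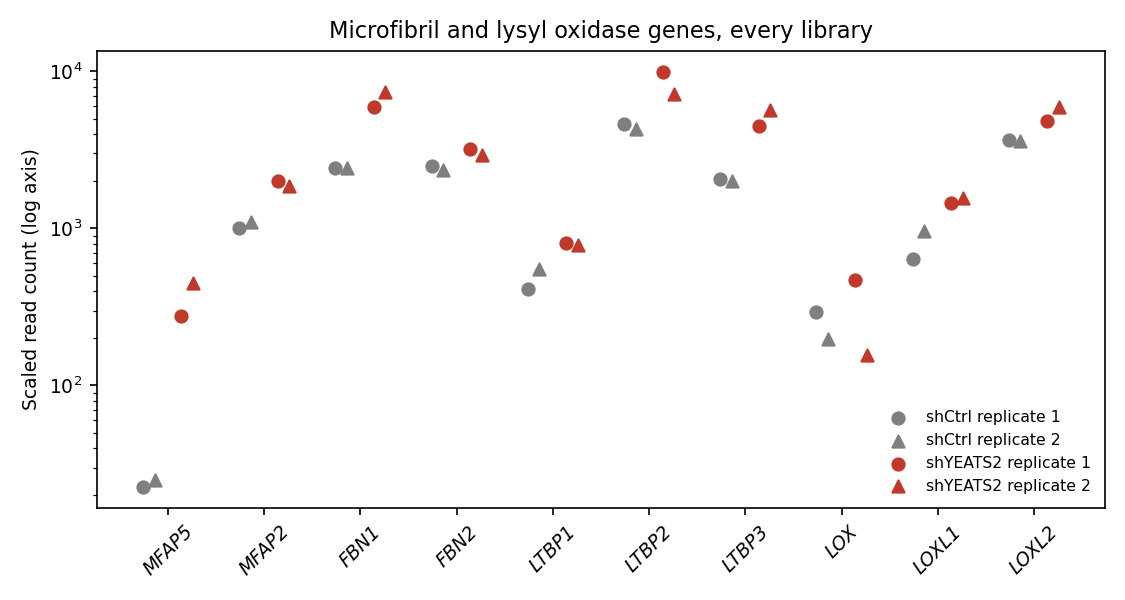
Scaled read count of each of the 10 genes on a log axis, with shCtrl libraries in grey and shYEATS2 libraries in red, replicate 1 as circles and replicate 2 as triangles. The red points lie above the grey ones for 9 genes, from MFAP5 with 22.6 and 25.0 against 275 and 451 to FBN2 with 2498 and 2339 against 3204 and 2956, and they straddle the grey ones only for LOX.

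Because fibroblasts make much of this matrix, the markers of that cell type were examined beside these rises. Of 9 fibroblast markers, COL1A1, COL1A2, COL3A1, DCN, LUM, PDGFRA, THY1 and FAP had no row, and ACTA2 had 166 and 166 scaled counts in shCtrl and 166 and 170 in shYEATS2. None of 4 endothelial and 4 leukocyte markers had a row. The 3 mesenchymal markers, all listed, summed to 115484 and 119051 scaled counts in shCtrl and 101059 and 83465 in shYEATS2. This sum is nearly all VIM, which was lower in both KD libraries. ZEB1 was also lower in both, with 2170 and 2066 against 1824 and 1995. CDH2 was higher in both, with 2199 and 2325 against 3058 and 2742. The 2 listed epithelial markers of 5 summed to 30269 and 29099 in shCtrl and 28418 and 19302 in shYEATS2. They lay on opposite sides of the controls, KRT8 with 10181 and 10697 against 14516 and 11319 and KRT18 with 20088 and 18402 against 13903 and 7983. The part of these differences in the rises was not tested.

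The microfibril-associated glycoproteins MFAP5 and MFAP2 are small proteins that bind fibrillin. MFAP5 (ENSG00000197614, chr12:8789942-8815484 on the minus strand, GRCh37) was counted in 21 and 23 reads in shCtrl and in 280 and 510 reads in shYEATS2. After scaling these were 22.6 and 25.0 against 275 and 451, or 23.8 ± 1.67 against 363 ± 124 (SD, n = 2 each). Both KD libraries stood far above both controls, and replicate 2 was the higher of the KD libraries. The log2 fold change was 3.93 (standard error 0.34), a 15.2-fold higher level, with values of 3.53 to 4.24 over the fits that dropped 1 library. It ranked 13 among the 12676 genes, and 5 among the 12123 genes with a mean of at least 100 scaled counts. MFAP5 was the only one of the 10 with no more than 100 reads in either control, so it had a row in the table only through the KD libraries.

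MFAP2 (ENSG00000117122, chr1:17300997-17307127, minus strand) had 1003 and 1103 scaled counts in shCtrl and 1993 and 1856 in shYEATS2. Its libraries within a group lay close together and the groups were well apart, with a log2 fold change of 0.87 (standard error 0.10, FDR 0.0016), or 1.83-fold. The level of MFAP5 per length was 0.168 ± 0.0118 in shCtrl and 2.56 ± 0.877 in shYEATS2. That of MFAP2 was 10.7 ± 0.719 and 19.5 ± 0.98. MFAP2 thus stayed the more abundant of the pair per length, but its ratio to MFAP5 was 63.6 and 63.4 in shCtrl and 10.4 and 5.9 in shYEATS2. The share of MFAP5 in the summed level of the pair was 1.55% in both controls and 8.78% and 14.5% in the KD libraries.

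The sequence before the most upstream RefSeq start of MFAP2 (250 bases before to 50 after it, GRCh38.p14, chr1:16981534-16981833, minus strand) is shown because it is the only one of the member promoters found with an AP-1 motif. The capitals mark its matches to TGANTCA, searched on both strands.
MFAP2: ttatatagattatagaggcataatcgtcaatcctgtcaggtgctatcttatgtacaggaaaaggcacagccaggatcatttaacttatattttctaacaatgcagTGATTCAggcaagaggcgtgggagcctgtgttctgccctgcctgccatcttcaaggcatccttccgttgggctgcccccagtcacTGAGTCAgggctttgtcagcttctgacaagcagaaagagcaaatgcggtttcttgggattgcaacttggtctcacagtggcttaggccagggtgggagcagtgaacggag
Of the 10 genes, 8 had a promoter in the RefSeq table, and MFAP5 and LOXL2 had none. TGANTCA was present in 1 of the 8 and in 7.72% of 27305 promoters of the same length. TATAAA was in 0 of the 8 and in 12% of all.

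Fibrillins are the long glycoproteins that form the microfibril itself, FBN1 being the main form of adult tissue and FBN2 being made mostly during development. FBN1 (ENSG00000166147, chr15:48700510-48937918, minus strand) had 2438 and 2426 scaled counts in shCtrl and 5960 and 7389 in shYEATS2. FBN2 (ENSG00000138829, chr5:127593601-127994878, minus strand) had 2498 and 2339 in shCtrl and 3204 and 2956 in shYEATS2. Neither gene's groups overlapped, but the gap was wide for FBN1 and narrow for FBN2. The log2 fold change of FBN1 was 1.46 (standard error 0.12, FDR 0.00092), or 2.74-fold, above that of 97.6% of all genes. That of FBN2 was 0.35 (standard error 0.10, 95% interval 0.11 to 0.58), or 1.27-fold, and was not called at an FDR of 0.0261.

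Per length, the fibrillins stood side by side in the control cells, FBN1 at 3.60 ± 0.0131 and FBN2 at 3.72 ± 0.174. In YEATS2 KD cells they were at 9.89 ± 1.5 and 4.74 ± 0.271. FBN1 made up 48.4% and 50.0% of the summed fibrillin level in shCtrl and 64.2% and 70.7% in shYEATS2. The ratio of FBN1 to FBN2 was 0.94 and 0.999 in shCtrl and 1.79 and 2.41 in shYEATS2, so the make-up of the pair differed between the groups in both libraries of each. This ratio does not depend on how the libraries are scaled, and the difference between the fold changes was not tested.

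**Figure D2:**
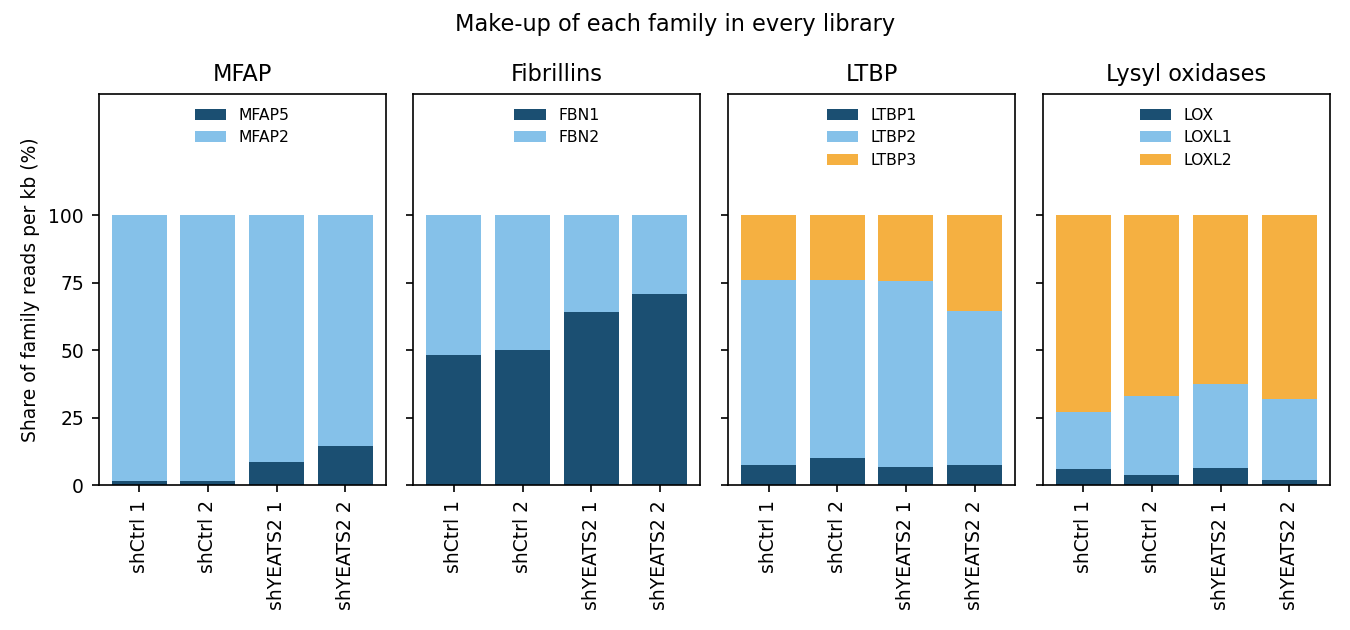
Share of each gene, in percent, in the summed reads per kilobase of exon of its family, as stacked bars for each of the 4 libraries. FBN1 grew from 48.4% and 50.0% to 64.2% and 70.7% of the fibrillins and MFAP5 from 1.55% to 8.78% and 14.5% of its pair, while the shares of LTBP1, LTBP2, LOX and LOXL2 overlapped between the groups and those of LTBP3 and LOXL1 were set apart by gaps of 24.0% to 24.5% and 29.2% to 29.9%.

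The promoters of the fibrillins are set side by side because the genes had like levels in control cells and unlike rises. Both are from RefSeq (GRCh38.p14, minus strand), FBN1 at chr15:48644921-48645220 and FBN2 at chr5:128538196-128538495. Capitals mark matches on either strand to GGAATG (the TEAD motif) in FBN1, and to GGGCGG (the GC box), CCAAT and CACGTG (an E-box) in FBN2.
FBN1: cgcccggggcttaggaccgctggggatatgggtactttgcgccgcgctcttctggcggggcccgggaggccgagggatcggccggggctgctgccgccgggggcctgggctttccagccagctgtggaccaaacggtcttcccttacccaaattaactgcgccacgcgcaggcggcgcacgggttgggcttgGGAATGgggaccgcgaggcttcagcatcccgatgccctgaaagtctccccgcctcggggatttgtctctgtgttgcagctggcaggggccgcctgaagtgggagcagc
FBN2: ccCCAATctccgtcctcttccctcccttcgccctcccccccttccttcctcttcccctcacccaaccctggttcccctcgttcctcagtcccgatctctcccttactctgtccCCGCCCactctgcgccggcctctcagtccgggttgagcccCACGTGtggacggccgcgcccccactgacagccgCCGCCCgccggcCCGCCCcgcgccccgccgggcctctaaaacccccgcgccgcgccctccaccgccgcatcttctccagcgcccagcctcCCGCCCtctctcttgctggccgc
GGAATG was found in 1 of the 8 member promoters and in 14.1% of all, and CACGTG in 1 of the 8 and 7.4% of all. The GC box was in 4 of the 8 (FBN2, LTBP2, LTBP3 and LOX) and in 44.5% of all, and CCAAT in 3 of the 8 (FBN2, LTBP1 and LOX) and in 35.7% of all. The GC content of these windows was 68.3% for FBN1 and 72.7% for FBN2, with a median of 58.3% over all promoters. These matches describe the letters only.

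The exons of FBN2 share 56 bases with those of SLC27A6. The gene next to FBN1 at its start, RP11-227D13.1, lies 230 bp away on the opposite strand. It had 31.2 and 29.3 scaled counts in shCtrl and 95.3 and 91.1 in shYEATS2, a log2 fold change of 1.62 (standard error 0.26), and was named after its values were seen. It had over 100 reads in 1 KD library only, so it was listed through that group, and no test is given. Of the nearest listed genes on each side of each of the 10, 20 in all, 3 were listed only through the KD libraries (FAM66C, RASGRP3 and RP11-227D13.1). Of the 17 others 0 were called higher, 2 lower and 15 neither, with a median log2 fold change of 0.00, beside 12.9% and 12.5% of all genes.

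The latent TGF-beta binding proteins all rose. LTBP1 and LTBP3 bind latent TGF-beta, whereas LTBP2 is a microfibril protein that does not. LTBP3 (ENSG00000168056, chr11:65306030-65326401, minus strand) had 2059 and 1995 scaled counts in shCtrl and 4510 and 5662 in shYEATS2, a log2 fold change of 1.33 (standard error 0.13, FDR 0.00114) or 2.51-fold. It was, after MFAP5 and FBN1, the next largest rise of the 10, and it kept its call with any library left out.

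LTBP2 (ENSG00000119681, chr14:74964886-75079081, minus strand) had 4629 and 4294 scaled counts in shCtrl and 9982 and 7151 in shYEATS2, a log2 fold change of 0.94 (standard error 0.16, FDR 0.00462). Its groups were apart, although the KD libraries differed from each other more than the controls did. Without shCtrl replicate 2 the log2 fold change was 0.89 and the call was lost at an FDR of 0.0119. LTBP1 (ENSG00000049323, chr2:33172020-33624576, plus strand) had 412 and 548 in shCtrl and 808 and 782 in shYEATS2, a log2 fold change of 0.73 (standard error 0.16, FDR 0.00984). The KD libraries were close together and the controls were not, and the call was at the edge of the threshold. It was lost without shCtrl replicate 1 (log2 fold change 0.53, FDR 0.0561), shYEATS2 replicate 1 (0.71, FDR 0.0188) or shYEATS2 replicate 2 (0.75, FDR 0.0211).

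Per length, LTBP2 was the highest of these genes in shCtrl, at 13.5 ± 0.717, followed by LTBP3 at 4.83 ± 0.109 and LTBP1 at 1.79 ± 0.359. In shYEATS2 they were at 25.9 ± 6.05, 12.1 ± 1.94 and 2.97 ± 0.0667, in the same order. The share of LTBP3 in the sum was 24.0% in both controls and 24.5% and 35.5% in the KD libraries, so 1 of the 2 KD libraries had nearly the control make-up. These shares and the order depend on the length used. With the longest transcript as length, the mean share of LTBP3 was 41.1% in shCtrl and 48.3% in shYEATS2. That of LTBP2 was then 51.7% and 46.1%, below LTBP3 in shYEATS2.

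LOXL1 and LOXL2 were called higher and LOX was not, and the difference between them was not tested. LOXL2 (ENSG00000134013, chr8:23154410-23282841, minus strand), which cross-links collagens including those of basement membranes, had 3640 and 3601 scaled counts in shCtrl and 4812 and 5904 in shYEATS2. Its controls were nearly equal and both KD libraries were higher, a log2 fold change of 0.57 (standard error 0.12, FDR 0.00939). The call was lost without shCtrl replicate 1 (0.57, FDR 0.0385), shCtrl replicate 2 (0.56, FDR 0.0395) or shYEATS2 replicate 2 (0.41, FDR 0.0189). LOXL1 (ENSG00000129038, chr15:74218330-74244478, plus strand), known for the upkeep of elastic fibres, had 637 and 956 in shCtrl and 1458 and 1572 in shYEATS2. Here the controls were the more spread pair, and the log2 fold change was 0.93 (standard error 0.19, FDR 0.00791). It was not called without shCtrl replicate 1 (0.66, FDR 0.018) or shYEATS2 replicate 2 (0.87, FDR 0.0217). After correction for trends in length, GC content and count level, LTBP1, LOXL1 and LOXL2 were not called, at FDR values of 0.0153, 0.0123 and 0.0114.

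LOX (ENSG00000113083, chr5:121398890-121414108, minus strand), the founding enzyme of the family, had 292 and 199 scaled counts in shCtrl and 466 and 156 in shYEATS2. The KD libraries held both the highest and the lowest of the 4 values. The log2 fold change was 0.34 (standard error 0.47, 95% interval -0.78 to 1.45) and was not called at an FDR of 0.576. Without shYEATS2 replicate 1 it was -0.65 and without shYEATS2 replicate 2 it was 0.93, so 1 library decided its direction. These libraries do not settle whether LOX differed.

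The promoter of LOX (RefSeq, GRCh38.p14, chr5:122078210-122078509, minus strand) is given as that of the 1 gene whose groups overlapped, with its CCAAT and GGGCGG matches in capitals.
LOX: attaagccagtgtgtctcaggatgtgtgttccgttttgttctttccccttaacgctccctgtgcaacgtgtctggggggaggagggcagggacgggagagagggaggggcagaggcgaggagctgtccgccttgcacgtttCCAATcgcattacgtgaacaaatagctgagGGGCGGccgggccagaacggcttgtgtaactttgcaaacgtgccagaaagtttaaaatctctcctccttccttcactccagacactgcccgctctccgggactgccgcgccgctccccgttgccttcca
It held motifs that are also in the promoters of FBN2 (both), LTBP1 (CCAAT), LTBP2 and LTBP3 (GGGCGG).

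Per length LOXL2 was the highest of all 10 genes in shCtrl, at 16.6 ± 0.128, with LOXL1 at 6.01 ± 1.7 and LOX at 1.20 ± 0.323. In shYEATS2 LOXL2 was at 24.6 ± 3.54, LOXL1 at 11.4 ± 0.607 and LOX at 1.52 ± 1.08. Over all 10, the order in shCtrl was LOXL2, LTBP2, MFAP2, LOXL1, LTBP3, FBN2, FBN1, LTBP1, LOX and MFAP5. The libraries of LOXL1 and LTBP3 overlapped, as did those of FBN2 and FBN1, and every other neighbour in this order was apart in both libraries. By the means in shYEATS2, LTBP2 came first and LOXL2 next, and MFAP5 moved ahead of LOX, which came last. LTBP2 was above LOXL2 in replicate 1 only (30.2 against 22.1, and 21.6 against 27.1 in replicate 2). MFAP5 was above LOX in replicate 2 only (3.18 against 0.763, and 1.94 against 2.28 in replicate 1).

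Some exons of these enzymes lie over other genes. LOX shares 138 bases with SRFBP1, LOXL2 shares 120 with ENTPD4 and LOXL1 shares 335 with its antisense gene LOXL1-AS1. LOXL1-AS1 had 498 and 615 scaled counts in shCtrl and 379 and 266 in shYEATS2, a log2 fold change of -0.79 (standard error 0.20) that was not called at an FDR of 0.0181. Its libraries lay on the other side of the controls from those of LOXL1, and since the library kit does not mark strand, the reads in the shared bases cannot be told apart.

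**Figure D3:**
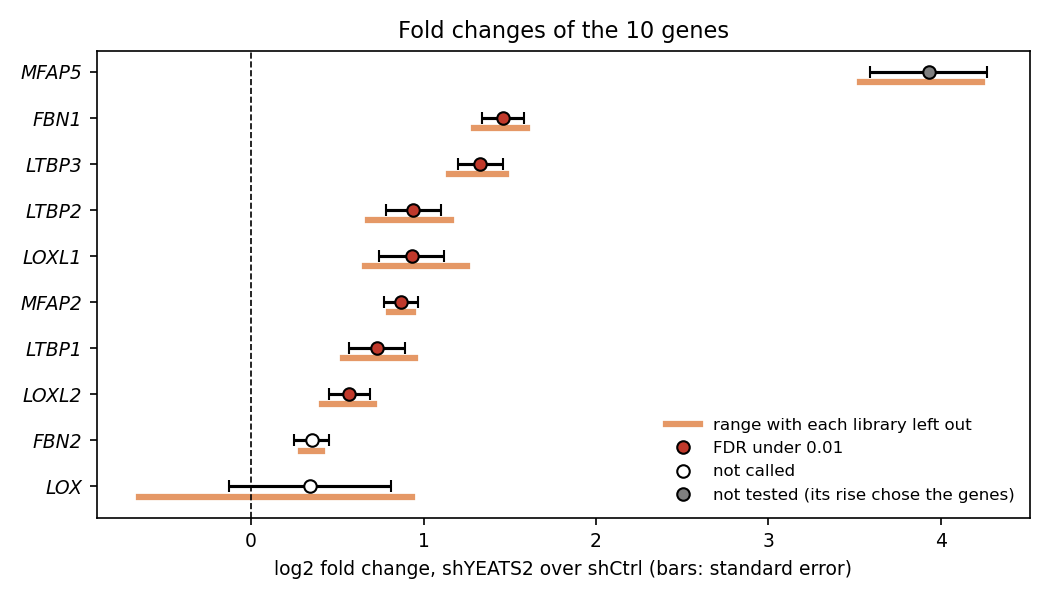
Log2 fold change of the 10 genes in shYEATS2 over shCtrl with its standard error (points and bars), and the range of the value with each library left out (orange bars). Filled red points are called at an FDR under 0.01, open points (FBN2 and LOX) are not, and MFAP5 in grey was not tested. The orange bar crosses 0 only for LOX, from -0.65 to 0.93.

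The other genes of the microfibril and its cross-linking were taken from 5 lists of 66 genes, of which 41 were in the table. Of the 41, 6 passed 100 reads only in the KD libraries (COL11A1, COL5A1, COL5A2, EFEMP1, TLL2 and TNXB) and so could be listed only by being higher there. They are described without a test and left out of the counts and medians that follow. Among the 35 others, 13 were called higher, 1 lower and 21 neither, with a median log2 fold change of 0.54, beside 12.9% and 12.5% called and a median of 0.00 over all genes.

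Of 20 partners of microfibrils and elastic fibres, 11 were listed. Of the 9 with over 100 reads in a control library 5 were called higher and 0 lower, with a median of 0.54. Over all genes 12.9% were called higher and 12.5% lower. Among those not called, FBLN1, named after its values were seen, lay below both controls. It had 1441 and 1563 scaled counts in shCtrl and 1098 and 1159 in shYEATS2 (log2 fold change -0.41, FDR 0.0164). Elastin (ELN) itself had no row, nor did FBN3, MFAP4, EMILIN1 or FBLN5. HSPG2, which encodes the basement membrane proteoglycan perlecan, had 2766 and 2573 scaled counts in shCtrl and 9343 and 14309 in shYEATS2, a log2 fold change of 2.15 (standard error 0.19, FDR 0.00105). FN1, the fibronectin on which fibrillin is first assembled, had 1705 and 2152 against 4649 and 5990, a log2 fold change of 1.46 (standard error 0.16, FDR 0.00141). In both genes the KD libraries were well above the controls. EFEMP1, which encodes fibulin-3 and was listed through the KD libraries, had 83.9 and 81.4 against 341 and 435, a log2 fold change of 2.23 (standard error 0.19). TNXB, listed in the same way, had 40.9 and 62.9 against 161 and 446, a log2 fold change of 2.55 (standard error 0.51), but shares sequence with a partial copy in the genome, so its counts are uncertain. On the log2 scale FBLN2, a fibulin, rose by 0.77 (FDR 0.00486) and EMILIN2 by 0.69 (FDR 0.00399). The remaining call, LTBP4, completes the LTBP family, was named after its values were seen and rose by 0.54 on the log2 scale (standard error 0.11, FDR 0.00794).

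Of 15 relatives of LOX, its activating proteases and proteins of copper supply, 11 were listed. Of the 10 with over 100 reads in a control library 5 were called higher and 1 lower, with a median of 0.54. The shares over all genes were 12.9% and 12.5%. BMP1, the protease that removes the LOX propeptide, had 651 and 689 scaled counts in shCtrl and 1331 and 1404 in shYEATS2, a log2 fold change of 1.03 (standard error 0.10, FDR 0.00119). PCOLCE, an enhancer of that protease, had 490 and 696 against 260 and 328, a log2 fold change of -1.01 (standard error 0.21, FDR 0.00834). The protease and this enhancer thus lay on opposite sides of the controls. Its relative PCOLCE2, named after its values were seen, lay on the side of the protease. It had 854 and 755 scaled counts in shCtrl and 1262 and 1081 in shYEATS2. Its log2 fold change of 0.54 was not called at an FDR of 0.0137. The copper importer SLC31A1 rose by 0.70 on the log2 scale (FDR 0.00274) and the copper pump ATP7A by 0.53 (FDR 0.00812). FKBP10, a collagen chaperone, rose by 0.90 (FDR 0.00151) and the convertase FURIN by 0.44 (FDR 0.00896).

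Of 9 substrates of lysyl oxidases and lysyl hydroxylases, 6 were listed. The 3 collagen genes among them were listed only through the KD libraries. COL5A2, a chain of collagen V, had 57.0 and 52.1 scaled counts in shCtrl and 189 and 217 in shYEATS2, a log2 fold change of 1.89 (standard error 0.21). The 3 others were lysyl hydroxylases, of which 2 were called higher, beside 12.9% of all genes, with a median of 0.51. The enzymes PLOD1 and PLOD3 rose by 0.65 (FDR 0.00353) and 0.51 (FDR 0.00737) on the log2 scale. The fibrillar collagen genes COL1A1, COL1A2 and COL3A1 had no row.

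Of 13 latent TGF-beta ligands and activators, 8 were listed, all with over 100 reads in a control library. Of these 1 was called higher and 0 lower, a share near the 12.9% of all genes, with a median of 0.25. The call was TGFB2, with 809 and 777 scaled counts in shCtrl and 1250 and 1572 in shYEATS2, a log2 fold change of 0.83 (standard error 0.14, FDR 0.00396). Named after its values were seen, TGFB1 had 9272 and 8698 against 7181 and 4772, and its log2 fold change of -0.59 was not called at an FDR of 0.0361. Of 9 ADAMTS and ADAMTS-like genes whose products bind microfibrils, 5 were listed and 0 were called in either direction, with a median of 0.60. They are named after their values were seen. ADAMTS6 lay below both controls (log2 fold change -0.84, FDR 0.0129). ADAMTSL3 (0.62, FDR 0.0149), ADAMTSL4 (0.81, FDR 0.0139), ADAMTSL5 (0.58, FDR 0.0115) and THSD4 (0.60, FDR 0.0145) lay above both.

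**Figure D4:**
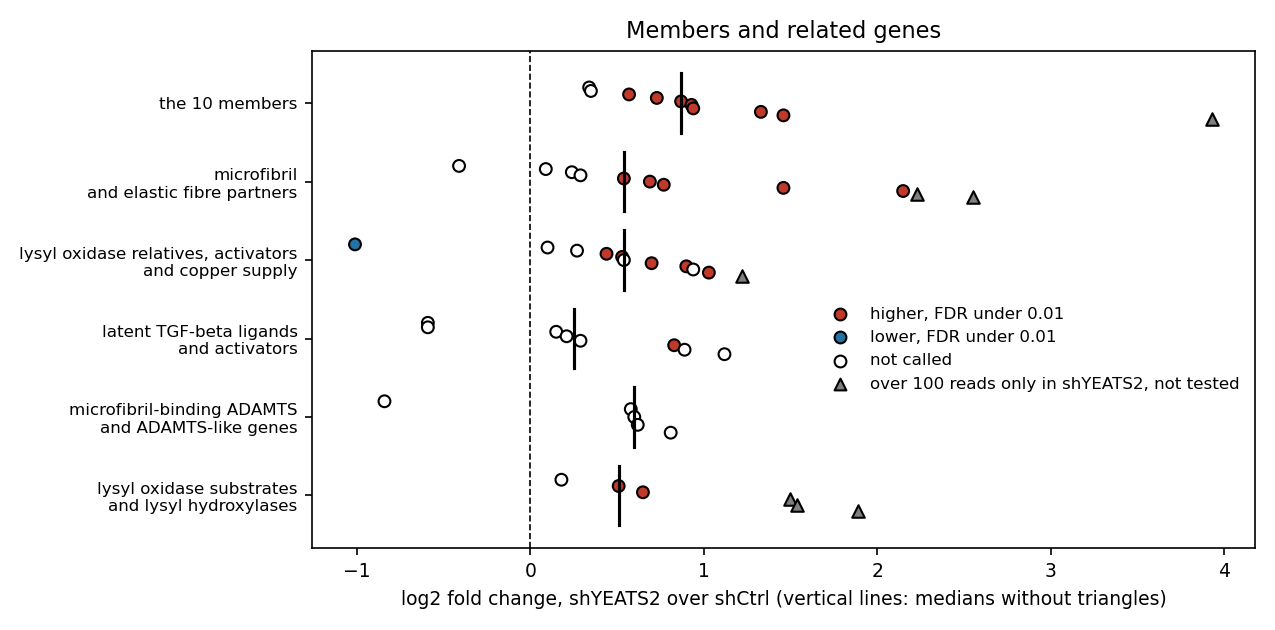
Log2 fold change in shYEATS2 over shCtrl of each listed gene, with the 10 genes in the top row and the 5 lists of related genes under it. Red points were called higher, blue lower and open points not called, grey triangles (MFAP5 and 6 related genes) had over 100 reads only in KD libraries and were not tested, and vertical lines are medians without them. The medians of the lists run from 0.25 for TGF-beta ligands and activators to 0.60 for ADAMTS and ADAMTS-like genes, with 0.87 for the 9 genes other than MFAP5.

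The genes whose pattern over the 4 libraries was most like that of MFAP5, by Euclidean distance between centred log2 scaled counts among genes with a mean of at least 100, were GPX3 (distance 0.442), APOE (0.637) and CTD-2228K2.7 (0.689). GPX3, a secreted glutathione peroxidase, had 94.7 and 93.3 scaled counts in shCtrl and 820 and 1247 in shYEATS2. APOE, an apolipoprotein, had 296 and 497 against 3356 and 4811, and CTD-2228K2.7 had 61.3 and 103 against 1213 and 2257. As in MFAP5, replicate 2 was the higher KD library in all 3, but they were picked by their values in these same libraries. GPX3 and CTD-2228K2.7 had no more than 100 reads in either control, so they too were listed only through the KD libraries. The likeness rests on 4 libraries of 2 groups, so it describes the rise and the spread between replicates only.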

How the data were processed

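RNA-seq of H1299 cells was analysed in 2 shCtrl and 2 shYEATS2 libraries, grouped by their titles. The ChIP-seq samples of the series were not used here. The authors deposited raw counts of reads per gene made by HTSeq (version 0.6.1p1 in the submitters' processing notes) on hg19. The study's methods name the RNA-Seq unified mapper and the processing notes TopHat2, so the mapper behind these counts is uncertain. The log2 fold changes and p-values that the authors deposited beside the counts were not used. The listed genes all have over 100 reads in some library.

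The minimum was 10 reads in 2 or more libraries, which all 12676 genes met. They were tested with edgeR 4.0.16 (R 4.3.3), TMM scaling, the quasi-likelihood test without a replicate block, and Benjamini-Hochberg adjustment over all genes. The study's own test, exactTest, was an alternative, as were DESeq2 1.42.0, limma-trend (limma 3.58.1), other scalings and filters, a replicate block, an FDR under 0.05, a trend correction (splines with 4 degrees of freedom) and each library left out. The scripts were tested on simulated data. Depth was 34718921 to 39417787 reads per library, and the median standard error of the log2 fold changes was 0.12. Levels per length used the union of exons from a GENCODE annotation on GRCh37, which held 98.3% of the genes. Genes named are the 10 members, YEATS2, up to 6 called genes per list by size of change, and the 3 genes most like MFAP5. Results on some single genes are not reported here. The members and lists were chosen with earlier results of these data known.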

Additional observations from a re-analysis of the deposited data

How the results depend on the processing

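All 10 genes kept a log2 fold change above 0 under every test, scaling, filter and correction tried with all 4 libraries. The calls of MFAP2, FBN1 and LTBP3 held under all of these and with any library left out. MFAP5 is counted here only as a value past the threshold, so that 8 of the 10 genes were past it, and 0 were called lower throughout. The counts of related genes in this and the next paragraph are over all 41 listed, where 16 were higher and 1 lower. They include the 6 genes listed only through the KD libraries, whose side of the controls was set by that listing. Of the 35 others, 13 were higher and 1 lower in the main fit. The counts under the other settings were not redone without the 6. On total counts the median of all genes shifted to 0.12 and that of the 10 genes was 1.02, 67% of all calls were higher in place of 50.8%, FBN2 was called (0.47, FDR 0.00768) and 0 related genes were called lower. With the replicate block, FBN2 (0.35, FDR 0.00802) made 9 of the 10 genes called, related genes called were 27 higher and 5 lower, and all genes called were 2742 and 2715. The libraries share a number only. Across genes, the difference between replicates 1 and 2 correlated at 0.40 between the groups, but 2 pairs do not show a pairing. At an FDR under 0.05, FBN2 (0.35) passed, related genes called were 27 and 5 and all genes 3093 and 3011. exactTest, run here with TMM scaling, called 26 and 5 related genes and 2596 and 2497 genes. These are not the counts that the study reported from that test. DESeq2 called 4 related genes lower. With the trend removed, 5 of the 10 genes were called, LTBP1 (0.65), LOXL1 (0.83) and LOXL2 (0.54) not being, and 2 related genes were called lower. There FBN2 was further from a call than in the main fit, at 0.15 (FDR 0.262). With the longest transcript as length, 8 of the 10 genes held their place in the order of levels, LTBP3 and LOXL1 trading places. The filter on low counts removed no gene.

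In the fits that leave 1 library out, the lone library of a group is assumed to vary like the others. The genes called ranged from 775 to 1971 higher and 850 to 2024 lower, the members from 5 to 7, and the related genes from 8 to 18 higher and 0 to 2 lower. The fewest members were called without shCtrl replicate 1 or shYEATS2 replicate 2. Log2 fold changes ranged from 3.53 (without shYEATS2 replicate 2) to 4.24 for MFAP5, 0.80 to 0.94 for MFAP2, 1.29 to 1.60 for FBN1, 0.29 to 0.41 for FBN2, 0.53 to 0.95 for LTBP1, 0.68 to 1.16 for LTBP2, 1.15 to 1.48 for LTBP3, -0.65 to 0.93 for LOX, 0.66 to 1.25 for LOXL1 and 0.41 to 0.71 for LOXL2. The value of LOX was reversed without shYEATS2 replicate 1. Depth limits MFAP5 most, with 21 and 23 reads in shCtrl. The cause of these changes was not tested.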

Other observations

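LOX was lower in replicate 2 than in replicate 1 in both groups, by 0.55 on the log2 scale in shCtrl and by 1.58 in shYEATS2. A threshold of -0.5 in both groups, chosen after these values were seen, was met by 3 of the 51 genes listed here (LOX, THBS1 and TGFBI, or 5.88%) and by 29 of all 12676 genes (0.229%). LOX was among the 3 by that choice. THBS1, thrombospondin 1, an activator of latent TGF-beta, had 7369 and 3733 scaled counts in shCtrl and 14854 and 5738 in shYEATS2. TGFBI, a matrix gene named for its response to TGF-beta, had 3532 and 2298 against 8019 and 4615. CTGF, a further secreted protein picked after the values of the others were seen, was lower in replicate 2 of both groups too. It had 12463 and 7018 scaled counts in shCtrl and 21911 and 15536 in shYEATS2, where it fell just short of the threshold. What differed between the replicates was not tested.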
